A study of Homo sapiens with 6 samples.

Results

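The mitochondrial protein import machinery was examined after depletion of SHMT2 in LX2, an established line of human hepatic stellate cells (the liver's collagen-forming mesenchymal cells). Earlier results of these data were known when the genes were chosen, and TOMM22 had been singled out as a large rise. The choice went by name: protein-coding genes named TOMM or TIMM with a number, and 14 further genes. These 14 encode subunits of the import motor, the outer-membrane assembly complex, the intermembrane-space disulfide relay, the presequence peptidase and the inner-membrane insertase. The choice by name gave 39 of the 60623 genes listed. Of these, 34 passed the filter of a mean of at least 1 FPKM (fragments per kilobase of gene, scaled to a library total). Cells were kept in medium with 2% serum and harvested 36 h after an siRNA was introduced, either the control siNC (3 libraries) or siSHMT2, which targets SHMT2 (3 libraries). The labels give the genotype of the first group as WT and of the second as SHMT2 knockdown. All 6 libraries come from the same line, and every library was transfected, so no untransfected group stands beside them. The labels do not say whether replicates were separate cultures, and the p-values cover the spread among these libraries only, which may be technical.

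Nearly all mitochondrial proteins are made in the cytosol and carried into the organelle. Precursors are bound by receptors of the TOM complex in the outer membrane and pass through its channel. They are then sorted to the TIM23 channel and its ATP-driven motor, to the TIM22 carrier translocase by way of small TIM chaperones, to the SAM complex for beta-barrel proteins, or to the disulfide relay of the intermembrane space. A peptidase of the matrix removes the targeting presequence. SHMT2, the mitochondrial serine hydroxymethyltransferase, is itself such an imported protein.

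The files gave 14722344 to 15669139 recovered reads per library. SHMT2 was 40.8, 56.3 and 45.1 FPKM in siNC and 2.25, 2.10 and 2.42 FPKM in siSHMT2, which was 4.77% of the control mean. Of 9 stellate or myofibroblast markers 7 had a mean of at least 1 FPKM, while ACTA2 and DES lay below 1. The 5 hepatocyte, 3 endothelial and 3 biliary markers all lay below 1, and of 4 immune markers CD14 alone did not, at 13.0 to 18.7 FPKM. The stellate markers summed to between 1828 and 2700 FPKM in the controls and between 1416 and 1629 after siSHMT2, and its part in the results below was not tested. The largest terms of that sum were TIMP1 (559 to 1393 FPKM over the 6 libraries) and VIM (473 to 930), beside 190 to 252 for COL1A1. All libraries are of 1 line, so the sum does not measure a mix of cell kinds. In bulk RNA, a change in some cells and a smaller one in all cells cannot be told apart.

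Of the 34 import genes tested, 2 rose (TOMM22 and TIMM8B) and 1 fell (GRPEL2) in siSHMT2 by limma at an adjusted p of 0.05 over all genes, and 31 were not called. That is 5.88% higher and 2.94% lower, beside 6.07% higher and 9.85% lower among all 10865 genes tested. After rescaling to TPM (a common sum in each library), 3 import genes were called higher and 1 lower, and the shares over all genes were 6.31% and 5.71%. The median difference over the 34 genes was 0.06 on the log2(FPKM + 1) scale, beside 0.02 over all genes tested. Without siNC replicate 1 the 2 medians were -0.02 and 0.01. The groups did not overlap for 5 import genes on the higher side and 2 on the lower side, which is 14.7% and 5.88% of the 34, beside 17.9% and 18.6% of all genes tested. An unadjusted p below 0.05 was found for 6 of the 34 (17.6%), beside 30.3% of all genes tested. In the main fit the share called higher was near that of all genes tested, and no test of the import genes as a set was made.

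FPKM is scaled to the deposited gene length, so levels can be ranked between genes only roughly. That length was near the count of all annotated exonic bases (for HSPA9, 7946 beside 8254). It may differ from the length of the transcripts in use, and this was not tested. The highest mean levels were those of TIMM13 (142 FPKM), TIMM23 (133), TIMM10 (111) and TOMM40 (110), and the lowest among the tested genes were GRPEL2 (2.66), TIMM23B (2.39) and MTX3 (2.26). Neighbours in that order were mostly not separated by the spread between libraries. TIMM13, for instance, ran from 92.7 to 178 FPKM over the 6 libraries and TIMM10 from 80.0 to 162.

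**Figure D1:**
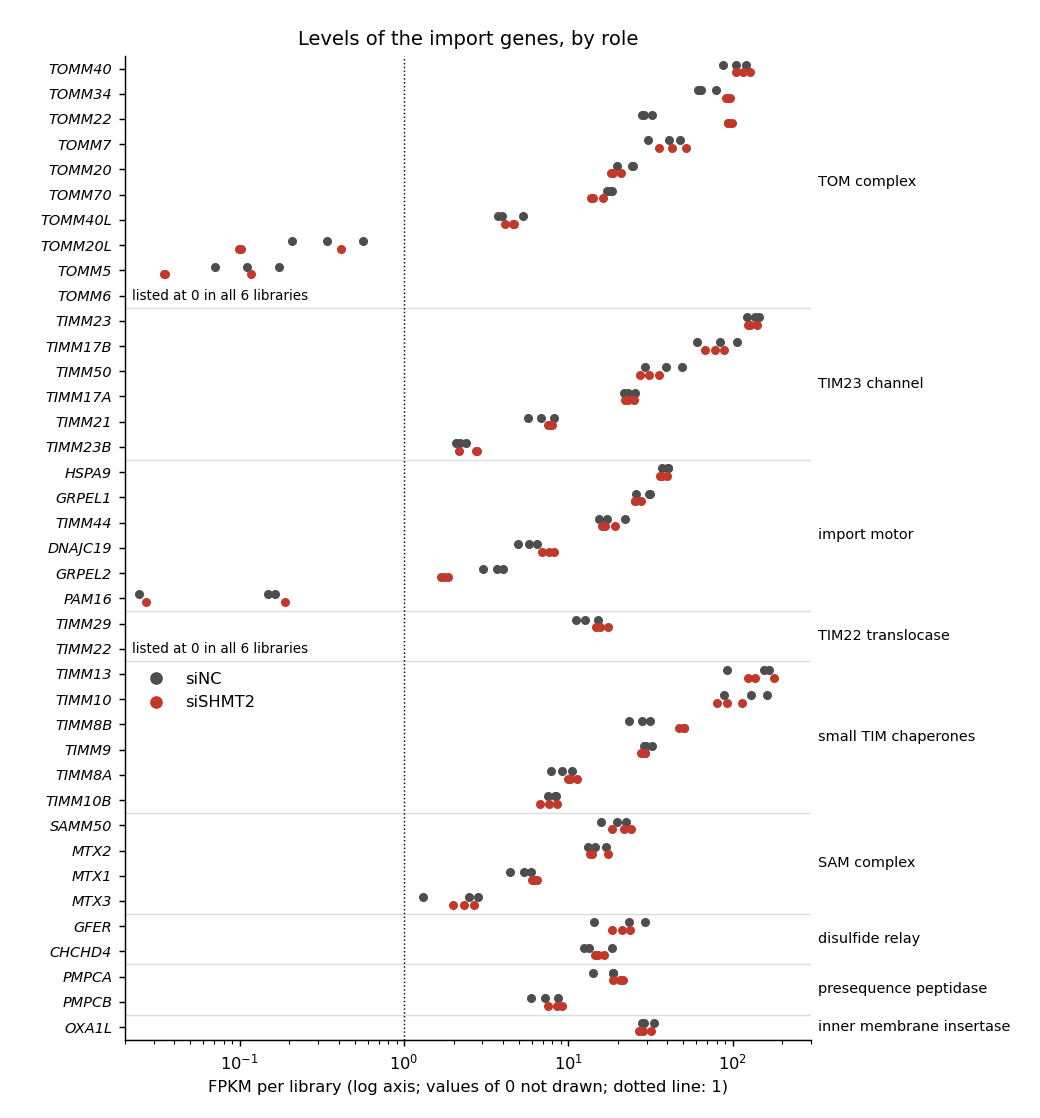
FPKM of each import gene in each of the 6 libraries on a log axis, grouped by role (grey, siNC; red, siSHMT2; dotted line, 1 FPKM). Points of the 2 groups lie among each other for most genes. They do not for TOMM22, TIMM8B, TOMM34, DNAJC19 and MTX1 (red to the right) or for GRPEL2 and TOMM70 (red to the left).

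The TOM complex held the largest change. TOMM22, the central receptor that also organises the channel, was 28.8, 32.2 and 27.8 FPKM in the siNC libraries and 93.2, 93.3 and 98.4 FPKM in the siSHMT2 libraries. All 3 siSHMT2 libraries thus lay far above all 3 controls, and within each group the libraries were close. The values rest on 1099, 1017 and 956 reads in siNC and 3261, 3374 and 3393 reads in siSHMT2. Group means were 29.6 ± 2.28 in siNC and 94.95 ± 2.95 FPKM in siSHMT2 (SD, n = 3), a ratio of 3.21, and the difference on the log2(FPKM + 1) scale was 1.65 (SE 0.108, 95% interval 1.40 to 1.90, limma adjusted p = 0.000176). TOMM22 had rank 10 among the rises of the 10865 genes tested. It had been singled out on these same values, so its rank and p-values are no independent support. An exact permutation test of 3 against 3 libraries, two-sided, gave p = 0.1, the smallest it allows. The gene lies on chromosome 22, 38681957 to 38685421 on the plus strand (GRCh38), and 0.0% of its exonic bases are shared with another gene in GENCODE 29. Rows for processed TOMM22 pseudogenes were listed at 0 in every library.

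No other TOM gene was called. TOMM40, the channel itself, was 87.3, 104 and 121 FPKM in siNC and 116, 104 and 128 in siSHMT2, with overlapping groups (difference 0.16, 95% interval -0.20 to 0.52). TOMM70, the receptor for carrier precursors, was 18.5, 17.3 and 18.0 FPKM in siNC and 14.1, 16.3 and 13.7 in siSHMT2. All 3 of its siSHMT2 values lay below the controls, but the difference of -0.27 was not called (SE 0.104, limma adjusted p = 0.121). TOMM20, the presequence receptor, was 24.6, 19.9 and 24.2 FPKM in siNC and 18.8, 20.9 and 18.2 in siSHMT2 (difference -0.23, 95% interval -0.51 to 0.04). With array weights, which count a more variable library less, TOMM20 and TOMM70 were both called lower by limma (adjusted p = 0.0120 and 0.0116). This was the only 1 of 18 alternatives that called either gene. By TPM their differences shrank to -0.148 and -0.192 (limma adjusted p = 0.618 and 0.461). The fit with array weights rests mostly on siNC replicate 3 (weight 2.681) and siSHMT2 replicate 1 (4.938), with the other libraries at 0.263 to 1.07. It called 18.2% of all genes tested lower, beside 9.85% in the main fit. TOMM7, a small subunit of the complex, and TOMM40L, a paralog of the channel, had intervals of -0.33 to 0.59 and -0.25 to 0.34.

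Ratios taken within a library do not depend on how the libraries were scaled. TOMM22 stood at 0.330, 0.309 and 0.230 of the TOMM40 level in the siNC libraries and at 0.803, 0.895 and 0.771 in the siSHMT2 libraries. Against TOMM20 the ratio was 1.17, 1.62 and 1.15 in siNC and 4.96, 4.46 and 5.42 in siSHMT2. The 2 groups were apart in each of these ratios (exact permutation p = 0.1, two-sided, the smallest that 3 against 3 allows). TOMM22 was singled out on these same values and its partners were not called, so the ratios restate its rise and are no separate support. The same limit applies to the ratios of TIMM8B and GRPEL2 below, which were genes called on these values.

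TOMM34, a cytosolic cochaperone that binds precursors and is no subunit of the complex, was 64.1, 79.5 and 61.7 FPKM in siNC and 90.5, 94.0 and 96.0 in siSHMT2. Its groups did not overlap, with a ratio of means of 1.37 and a difference of 0.45 (SE 0.130), but the limma adjusted p of 0.0531 missed the threshold. It was called in 8 of 18 alternatives, among them TPM (0.0215), FPKM from plain read sums (0.0160) and voom on recovered reads (0.0109), and without siNC replicate 2 (0.0125).

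**Figure D2:**
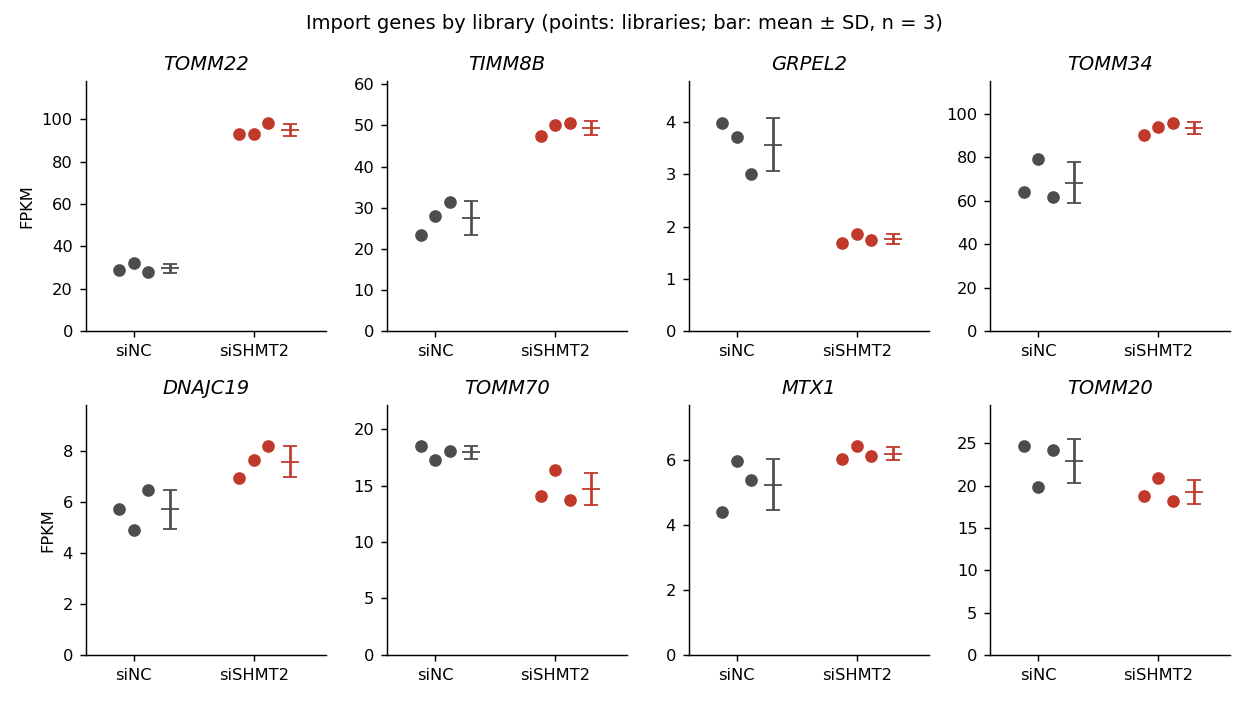
FPKM per library for the 7 tested import genes whose groups did not overlap and for TOMM20, each panel on its own axis from 0 (points, libraries; bars, mean ± SD, n = 3). TOMM22 sits at 27.8 to 32.2 in siNC and 93.2 to 98.4 in siSHMT2, and the TOMM20 groups overlap.

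In the inner membrane, the 6 genes of the TIM23 channel gave no call by limma, and none had an unadjusted p below 0.05 or was called by voom on recovered reads. TIMM23, the pore, was 122, 145 and 137 FPKM in siNC and 141, 123 and 128 in siSHMT2 (difference -0.04, 95% interval -0.34 to 0.25). Its partner TIMM17A differed by 0.00 (-0.24 to 0.25) and the paralog TIMM17B by -0.07 (-0.55 to 0.41). TIMM17B stood at 3.55 ± 0.819 times TIMM17A in siNC and 3.32 ± 0.258 times in siSHMT2 (SD, n = 3), so the proportion of the 2 forms overlapped between groups. TIMM50, the receptor of the channel, had a difference of -0.29 (-0.73 to 0.16) and TIMM21, which links TOM and TIM23, one of 0.16 (-0.14 to 0.45). TIMM23B, a copy of TIMM23, was read at 2.07 to 2.79 FPKM, and reads of such near-identical copies may be split between the 2 genes.

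The import motor, which pulls precursors into the matrix, held the single fall. GRPEL2, a nucleotide exchange factor for the matrix HSP70, was 3.98, 3.70 and 3.005 FPKM in siNC and 1.68, 1.86 and 1.75 in siSHMT2, from 209 to 308 and 119 to 136 reads. The groups did not overlap and siSHMT2 averaged 49.4% of siNC (3.56 ± 0.504 and 1.76 ± 0.0891 FPKM, SD, n = 3). GRPEL2 fell by 0.72 on the log2(FPKM + 1) scale (SE 0.114, 95% interval -0.98 to -0.46, limma adjusted p = 0.00548). Its paralog GRPEL1, the more abundant exchange factor, was 25.9, 30.8 and 31.5 FPKM in siNC and 25.4, 25.4 and 27.7 in siSHMT2 (difference -0.16, 95% interval -0.42 to 0.10). GRPEL2 stood at 0.154, 0.120 and 0.0953 of the GRPEL1 level in siNC and at 0.0663, 0.0730 and 0.0630 in siSHMT2, so the pair was less even in all 3 siSHMT2 libraries (exact permutation p = 0.1, the smallest possible).

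HSPA9, the matrix HSP70 itself, was 40.2, 36.9 and 40.5 FPKM in siNC and 36.9, 39.7 and 36.0 in siSHMT2 (difference -0.06, 95% interval -0.30 to 0.18). TIMM44, which tethers HSPA9 to the channel, differed by -0.06 (-0.40 to 0.28). DNAJC19, a J-domain protein of the motor, was 5.72, 4.91 and 6.47 FPKM in siNC and 6.94, 7.62 and 8.17 in siSHMT2. All 3 siSHMT2 libraries exceeded the controls, with a difference of 0.36 (SE 0.116) that was not called (limma adjusted p = 0.0758).

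**Figure D3:**
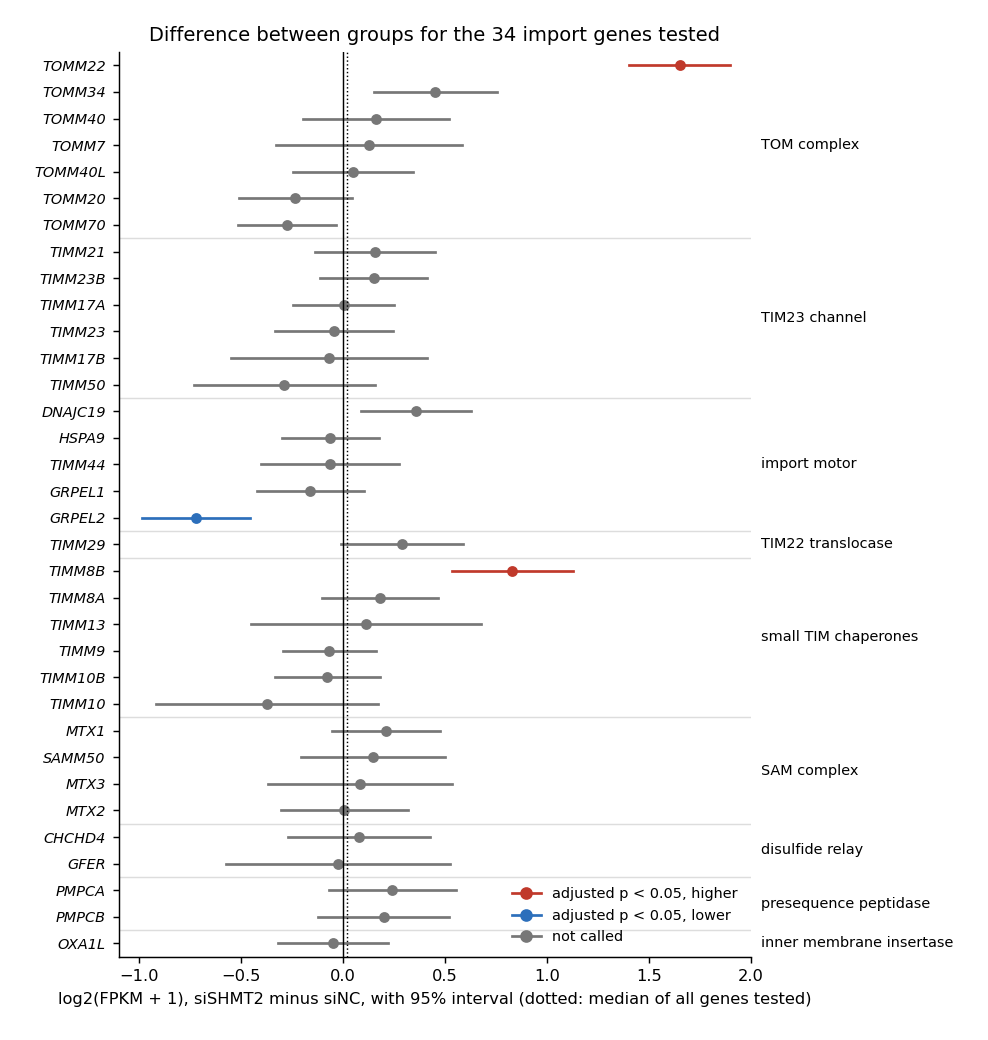
Difference on the log2(FPKM + 1) scale between siSHMT2 and siNC for the 34 tested import genes, with the 95% interval of the limma fit, grouped by role. The intervals of TOMM22 (1.40 to 1.90), TIMM8B and GRPEL2 lie well away from 0, and most others span it.

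The small TIM chaperones carry hydrophobic precursors across the intermembrane space. TIMM8B was 23.3, 27.9 and 31.3 FPKM in siNC and 47.4, 50.2 and 50.7 in siSHMT2, from 471 to 575 and 886 to 970 reads. Every siSHMT2 library lay above every control, with means of 27.5 ± 4.01 and 49.4 ± 1.76 FPKM (SD, n = 3). TIMM8B rose by 0.83 on the log2 scale (SE 0.128, 95% interval 0.54 to 1.13, limma adjusted p = 0.00485), a ratio of means of 1.80. The gene lies on the minus strand of chromosome 11 at 112084800 to 112086798 (GRCh38), and 32.3% of its exonic bases are shared with genes on the other strand. NKAPD1 shares 30.1% and SDHD 2.2%. NKAPD1 was 4.34, 3.56 and 3.72 FPKM in siNC and 4.37, 5.56 and 5.35 in siSHMT2 (limma adjusted p = 0.106), and SDHD was 10.1, 5.24 and 11.9 and then 12.3, 13.8 and 12.6 (0.195). The sources used here do not say whether counting used strand, and the part of these neighbours in the TIMM8B value was not tested.

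TIMM8A, the paralog of TIMM8B and the gene of a deafness and dystonia syndrome, was 7.79, 10.6 and 9.19 FPKM in siNC and 9.96, 10.2 and 11.3 in siSHMT2, with overlapping groups. TIMM8B exceeded TIMM8A 3.01 ± 0.385 times in siNC and 4.72 ± 0.223 times in siSHMT2 (SD, n = 3), and the 2 groups were apart (exact permutation p = 0.1). TIMM13, the partner of TIMM8A in its hexamer, was 92.7, 165 and 155 FPKM in siNC and 137, 124 and 178 in siSHMT2 (95% interval -0.45 to 0.68). It shares 13.0% of its exonic bases with LMNB2 on the same strand, and LMNB2 fell by 0.81 (limma adjusted p = 0.00275), so reads in that stretch cannot be given to either gene with certainty. TIMM9 and TIMM10 form the other hexamer. TIMM9 ran from 27.7 to 32.2 FPKM over all 6 libraries, and TIMM10 was 88.0, 129 and 162 FPKM in siNC and 92.3, 80.0 and 114 in siSHMT2 (difference -0.37, 95% interval -0.92 to 0.17). TIMM10B, a related chaperone, had an interval of -0.33 to 0.18.

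**Figure D4:**
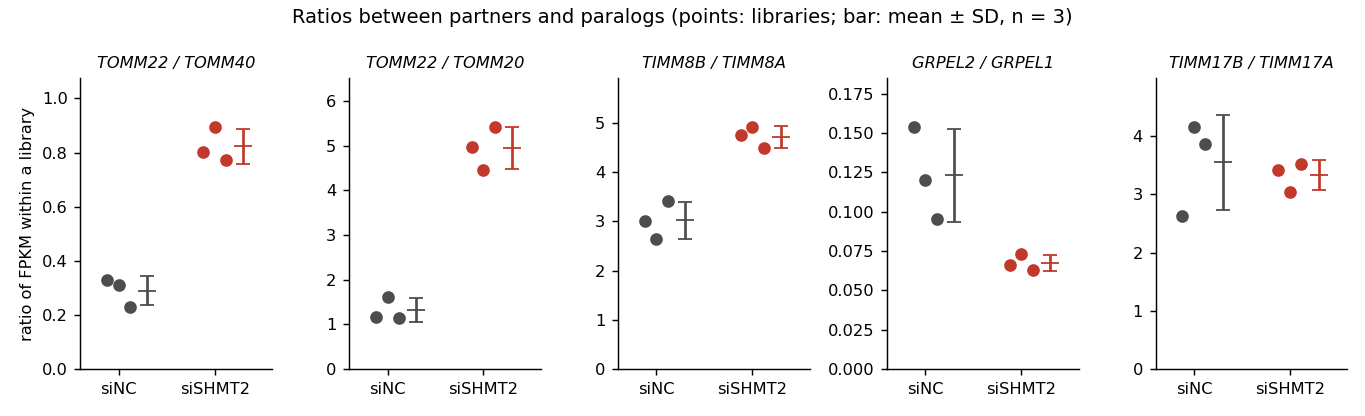
Ratio of FPKM between partners or paralogs within each library, each panel on its own axis from 0 (points, libraries; bars, mean ± SD, n = 3). TOMM22 against TOMM40 or TOMM20 and TIMM8B against TIMM8A are higher in all 3 siSHMT2 libraries and GRPEL2 against GRPEL1 is lower, while TIMM17B against TIMM17A overlaps.

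The remaining branches, the SAM complex, the disulfide relay, the presequence peptidase, TIMM29 of the TIM22 translocase and the insertase OXA1L, gave no call by limma among 10 tested genes, none with an unadjusted p below 0.05 and none by voom on recovered reads. All 4 SAM genes had positive differences, but 2 of these were small. MTX2 differed by 0.007 (95% interval -0.305 to 0.32) and MTX3 by 0.085 (-0.367 to 0.536). They kept that sign in 14 of 18 and 15 of 17 alternatives. MTX1, an outer-membrane metaxin, was 4.39, 5.96 and 5.39 FPKM in siNC and 6.03, 6.42 and 6.14 in siSHMT2, without overlap (difference 0.21, limma adjusted p = 0.263). SAMM50, the beta-barrel core of the complex, was 15.7, 19.7 and 22.3 FPKM and then 21.6, 18.4 and 23.9 (95% interval -0.21 to 0.50). CHCHD4, the oxidoreductase of the relay, and GFER, the sulfhydryl oxidase that reoxidises it, had intervals of -0.27 to 0.43 and -0.57 to 0.53. The 2 peptidase subunits PMPCA and PMPCB differed by 0.24 (-0.07 to 0.56) and 0.20 (-0.12 to 0.52). TIMM29 differed by 0.29 (-0.01 to 0.59) and OXA1L by -0.05 (-0.32 to 0.22).

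The 5 genes below the filter include core subunits of the complexes. TOMM6 and TIMM22, the carrier channel, were listed at 0 in all 6 libraries. TOMM5 had 2 to 9 reads per library, PAM16, the J-like subunit of the motor, 0 to 7, and TOMM20L, a paralog of TOMM20, 1 to 6. In GENCODE 29, every exonic base of TOMM6 lies in the exons of another protein-coding gene on the same strand (AL365205.1, 0.52 to 0.67 FPKM). TOMM5 shares 18.7% with same-strand genes, and PAM16 shares 21.9% with the readthrough gene CORO7-PAM16, itself listed at 0. TIMM22 shares 4.8% with ABR on the other strand. The sources used here do not say how reads that overlap several genes were counted, and the part of such overlaps in these low values was not tested. No difference between the groups was tested for these 5 genes.

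The spread between libraries was uneven. The SD of log2(FPKM + 1) was larger in siNC than in siSHMT2 for 30 of the 34 import genes (88.2%, beside 79.0% of all genes tested), with medians of 0.20 and 0.11. The widest control spreads were those of GFER (SD 0.502), TIMM13 (0.455), TIMM10 (0.443) and TIMM17B (0.395). In their longest transcript these 4 have 62.0%, 63.6%, 51.6% and 56.5% GC, and MTX3, the next widest (SD 0.39), has 36.7%. The siNC replicate 1 library was the lowest of its group for 18 of the 34 genes (38.7% of all genes), and the import genes summed to 975 FPKM there, beside 1251 and 1248 in siNC replicates 2 and 3 and 1165 to 1339 in siSHMT2. Of the called genes, TOMM22 had SDs of 0.106 in siNC and 0.044 in siSHMT2, TIMM8B 0.206 and 0.051, and GRPEL2 0.163 and 0.046. A call depends on this spread, so the SDs of called genes are no separate support for the calls. With each library's trend on GC content removed, TOMM22, TIMM8B and GRPEL2 were still called, and TOMM34 and DNAJC19 were called higher as well. Calls over all genes rose too in that setting, to 9.81% higher and 11.2% lower, from 6.07% and 9.85%.

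An earlier look at these same libraries had found that many genes lower in siSHMT2 hold in the 3′ UTR a word of 7 bases, GACTTTA or ACTTTAA. The words were picked on these fold changes, so what follows describes the import genes and tests nothing. Either word was present in 10 of the 34 tested import genes (29.4%), beside 2309 of 9385 searched genes (24.6%). Of the 10 genes 8 had negative differences, with a median of -0.12. Of the 24 without a word 6 were negative, with a median of 0.14. Over all searched genes the median was -0.13 with a word (1506 of 2309 negative) and 0.06 without (2904 of 7076 negative). A split in this direction is thus not particular to the import genes. TOMM22, TIMM8B and TOMM34 held neither. GRPEL2, the gene that fell, held 3 separate copies in a 3′ UTR of 3301 bases, and TOMM20 and TOMM70 held 1 site each. These sites are shown because GRPEL2 is the called fall and TOMM70 and TOMM20 are the outer-membrane receptors with negative differences (GRCh38, GENCODE 29 transcripts, 7 bases on each side, the words in capitals):
GRPEL2, chr5:149351751-149351771, plus strand: ttttcagGACTTTAccttttg
GRPEL2, chr5:149353870-149353890, plus strand: cctgcagGACTTTAggcacca
GRPEL2, chr5:149354545-149354565, plus strand: agaaacaACTTTAAtaaaacc
TOMM70, chr3:100363715-100363736, minus strand: gacctctGACTTTAAaaaagtt
TOMM20, chr1:235109505-235109525, minus strand: ccattctGACTTTAttaaatc
A word alone did not go with a lower value in every case. MTX3, an outer-membrane metaxin with 4 sites in a 3′ UTR of 6944 bases, had a difference of 0.08, and DNAJC19, with 1 site, one of 0.36.

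**Figure D5:**
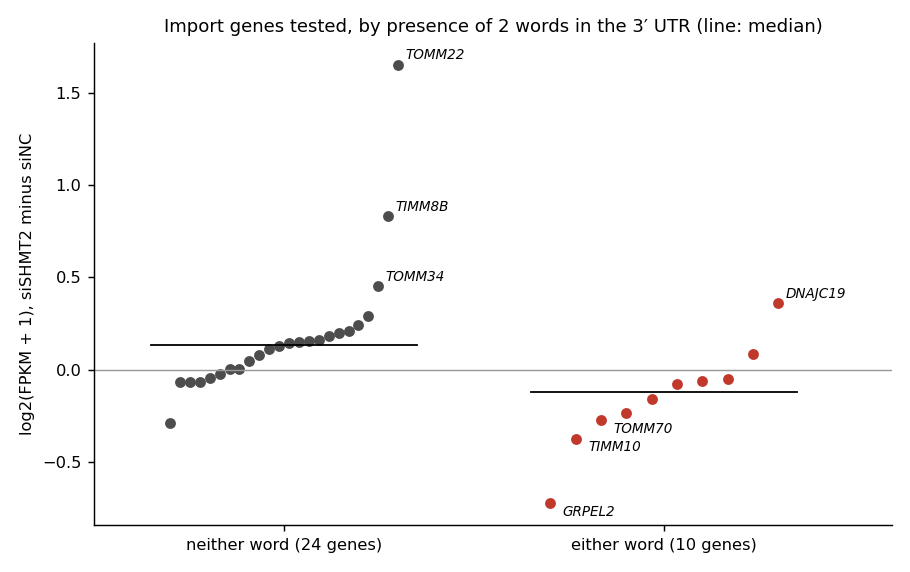
Difference on the log2(FPKM + 1) scale for the 34 tested import genes, by whether GACTTTA or ACTTTAA stands in the 3′ UTR (points, genes; lines, medians). The 24 genes with neither word have a median of 0.14 and the 10 with a word one of -0.12, with GRPEL2 the lowest. Over all searched genes, not drawn, the medians are 0.06 without and -0.13 with a word.

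Promoters of import genes were searched for 3 words on both strands in RefSeq windows of 250 bases before to 50 after the start (GRCh38.p14, 36 of 39 genes matched). No word contains another. The ETS-type word CCGGAAGT was present in 9 of 36 import promoters (25.0%), beside 8.07% of promoters of tested genes and 4.14% of all promoters. These 9 were GRPEL2, TOMM70, TOMM20, TOMM6, TIMM10, TIMM10B, TIMM29, MTX2 and MTX3. The 8 tested among them had a median difference of -0.16, and 5 of the 8 were negative. GRPEL2, TOMM70, TOMM20, TIMM10, TIMM10B and MTX3 also hold a 3′ UTR word, so the 2 features largely coincide. CCAAT was present in 33.3% beside 34.8% (median difference 0.007 over 11 tested genes). CACGTG was present in 13.9% beside 9.72% (median -0.061 over 5 tested genes). Medians over all genes with or without these promoter words were not taken. The TOMM22 promoter held none of the 3 words, and TIMM8B, GRPEL1 and TOMM5 were the genes without a match in the table. An NRF1-type word was searched as well, first in a longer form, whose share among import promoters stood near that among tested genes, and then in a shorter form, whose share was higher. Because the result depended on a length changed after the first search, no values are given for it. All words were chosen with results of these data known. A match describes the sequence and is not evidence that a factor binds there.

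Genes that work beside the import machinery were taken from a separate list of 28, of which 26 were tested. By limma 1 of the 26 was called lower and 0 higher, beside 9.85% lower and 6.07% higher of all genes tested. The groups did not overlap for 4 on the higher side and 2 on the lower, beside 17.9% and 18.6% of all genes tested. The called gene was CLPX, the unfoldase of the matrix ClpXP protease, at 6.82, 4.26 and 5.32 FPKM in siNC and 2.16, 2.39 and 2.10 in siSHMT2. All siSHMT2 values lay below the controls, and CLPX fell by 0.99 (SE 0.148, limma adjusted p = 0.00435). It held both words in its 3′ UTR. LONP1, the other large matrix protease, was 22.5, 33.2 and 26.1 FPKM and then 41.2, 33.8 and 37.6, without overlap but not called (limma adjusted p = 0.0885). It was called higher in 6 of 18 alternatives, among them TPM, voom on recovered reads and the fit without siNC replicate 2 (adjusted p from 0.00272 to 0.284 over the 18). The chaperonins HSPD1 and HSPE1, which fold imported proteins, were not called (limma adjusted p = 0.730 and 0.473). Nor was any of 7 MICOS genes, which shape the inner membrane, with 4 differences positive and 3 negative. Their groups did not overlap for IMMT at -0.32 and APOOL at 0.289 (limma adjusted p = 0.180 and 0.132). APOOL was called higher in 2 of 17 alternatives and IMMT in 0 of 18. The median of the 26 genes was 0.01, beside 0.02 over all genes tested.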

How the data were processed

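RNA of 6 LX2 libraries was analysed from 1 table of FPKM values deposited by the authors. The submitters' processing notes name the aligner HISAT2 (2.0.5), the counter featureCounts (1.5.0-p3) and hg18. A SMARTer mRNA kit was used, per the labels. The table's coordinates overlapped GENCODE 29 (GRCh38) for 100% (rounded) of 58516 shared identifiers and are printed as deposited. Multiplying FPKM by length and dividing by 1 constant per library gave whole numbers for 100% of values above 0 (within 0.02), taken as reads per gene. The gene length column, deposited by the authors in bases, served that step.

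Genes with a mean of at least 1 FPKM (10865) entered the limma fit (3.58.1, R 4.3.3) of log2(FPKM + 1), moderated with an intensity trend and adjusted by Benjamini-Hochberg across all of them. Fold changes on this scale understate the change of low genes. Intervals are the 95% intervals of the fit, not adjusted for the number of genes. The fit was tested on simulated data. Alternatives changed the pseudocount, filter, scaling, genes tested, moderation, library weights, a replicate block, the test (limma voom on recovered reads), GC trend and the libraries included, each left out in turn. Every import gene is named, and genes called or without overlap are given in full where a role is described. The genes, lists and tests were chosen with earlier results of these data known. Group and replicate come from the sample titles. The 3′ UTR words and promoters were searched in Python 3.11.15. The longest 3′ UTR of at least 50 bases among protein-coding transcripts was used.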

Additional observations from a re-analysis of the deposited data

How the results depend on the processing

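Of 18 alternatives, 17 were planned with the tests and 1, the removal of the GC trend (loess, span 0.5), was chosen after seeing the data. TOMM22 was called higher in all 18, with differences of 1.61 to 1.77, and without single libraries of 1.61 to 1.71. SHMT2 was called lower in all 18 (-4.32 to -3.75) and TIMM8B higher in all 18 (0.66 to 0.94). GRPEL2 was called lower in the 17 that tested it (-0.97 to -0.61). The count of import genes called higher was 4 with array weights and 4 with the GC trend removed, against 2. Without single libraries it was 2 or 3, while the share of all genes called higher ran from 2.11% to 6.71%. How the import genes compare with all genes thus depends on the setting. The count called lower was 5 with array weights (GRPEL1, GRPEL2, TIMM10, TOMM20 and TOMM70), and 0 at a mean FPKM of at least 5, where GRPEL2 is not tested, against 1. Array weights also gave 16.8% higher and 18.2% lower over all genes tested, and removal of the GC trend gave 9.81% and 11.2%. Of the 31 import genes not called, 24 were called in none of the alternatives, and 15 changed sign in at least 1 of them without being called on the other side. Deviations from the group means correlated at -0.018, -0.349 and 0.243 between libraries of equal number (1, 2 and 3). Between unequal numbers they ran from -0.483 to 0.496. With 3 libraries per group these values cannot settle whether replicate numbers mark a pairing. With the replicate block, 2 import genes were higher and 1 lower, TOMM22 stayed at 1.65 (limma adjusted p = 0.00330), and over all genes 374 were higher and 696 lower, against 659 and 1070. Precision at low levels is limited by reads, with 96 to 139 per library for TIMM23B.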
